A study of Mus musculus with 55 samples.

Results

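The P2X7, NLRP3 and interleukin 1 axis was represented by 4 of the 799 genes measured: P2rx7, Nlrp3, Il1a and Il1r1, taken by name from the table and followed over all 8 groups of diet and injury. The study measured RNA of 1 piece of cortex from each of 55 male C57BL/6 mice, 8 to 10 weeks old, on a nanoString nCounter panel, in which each gene is read as the number of its fluorescent barcodes. PLX5622, which inhibits the receptor CSF1R that microglia need to survive, was mixed into AIN-76A chow at 1200 mg/kg. Mice ate that chow, or the same chow without the drug as vehicle, for 14 days before a traumatic brain injury, or TBI, and stayed on it to the end. The groups were PLX5622 naive, that is uninjured (6 mice), and at 1 day (8 mice), 7 days (9 mice) and 30 days (7 mice) after TBI, and vehicle naive (7 mice) and at 1 day (6 mice), 7 days (7 mice) and 30 days (5 mice). Only 1 naive PLX5622 group was compared with every day, so the effects of longer feeding and of the day after TBI cannot be told apart. Cortex regions were picked where CD11b staining of neighbouring sections showed hypertrophied or rod-shaped microglia.

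Total barcode counts per mouse ran from 176038 to 1208609, with a median of 519047. Values below are normalised counts: barcode counts divided by 1 factor per mouse, on a linear scale. The summed level of 13 measured microglial markers (Csf1r, Cx3cr1, P2ry12 and others) was 171 to 335 in naive PLX5622 mice and 2397 to 2981 in naive vehicle mice. Of the 13, 12 were lower on PLX5622, where 3.38% of all genes were lower. Summed neuronal markers (Syt1, Nefl, Nefh, Map2) reached 12928 or more in every mouse, so the defining markers of the labelled tissue were present. One naive vehicle mouse, number 695, carries 7 days in its title but is labelled as uninjured, and it was kept as naive.

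P2X7 is an ATP-gated channel of the cell surface that opens when injured cells spill ATP. The potassium loss that follows activates NLRP3, a cytosolic sensor that assembles the inflammasome, in which caspase-1 matures interleukin 1 beta. Interleukin 1 alpha, the product of Il1a, is an alarmin that is active without inflammasome cleavage, and it binds the same receptor, IL1R1, as interleukin 1 beta. In the brain, microglia are a well-known source of P2X7, NLRP3 and both interleukins, whereas IL1R1 is known on endothelium and other cells that receive the signal.

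In RefSeq on GRCm38.p6, Il1r1 lies at chr1:40222480-40316201, Il1a at chr2:129299609-129310186, P2rx7 at chr5:122643927-122692336 and Nlrp3 at chr11:59541569-59566955. Their promoter windows, 250 bases before to 50 after a start, are shown because P2rx7, Nlrp3 and Il1a are commonly assigned to microglia and Il1r1 is not. The letters GAGGAA, the core of sites for the myeloid factor PU.1 and other ETS proteins, were searched on both strands (TTCCTC is the reverse), and a match is in capitals. RefSeq gave 7 windows for the 4 genes, and the first window of each is printed 5′ to 3′ on its gene's strand: P2rx7 at chr5:122643677-122643976 (plus strand), Nlrp3 at chr11:59542436-59542735 (plus), Il1a at chr2:129309923-129310222 (minus) and Il1r1 at chr1:40224830-40225129 (plus).
P2rx7: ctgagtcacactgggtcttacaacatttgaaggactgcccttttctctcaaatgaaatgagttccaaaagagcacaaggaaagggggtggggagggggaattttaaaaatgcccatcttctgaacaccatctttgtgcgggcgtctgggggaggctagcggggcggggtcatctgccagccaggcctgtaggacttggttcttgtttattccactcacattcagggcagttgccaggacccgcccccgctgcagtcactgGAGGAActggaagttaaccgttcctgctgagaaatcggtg
Nlrp3: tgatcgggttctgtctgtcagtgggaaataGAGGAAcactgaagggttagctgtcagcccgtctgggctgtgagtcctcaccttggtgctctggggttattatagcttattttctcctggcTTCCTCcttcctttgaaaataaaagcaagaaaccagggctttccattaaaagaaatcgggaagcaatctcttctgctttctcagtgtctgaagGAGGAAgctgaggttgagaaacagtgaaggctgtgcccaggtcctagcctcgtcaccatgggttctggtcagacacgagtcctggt
Il1a: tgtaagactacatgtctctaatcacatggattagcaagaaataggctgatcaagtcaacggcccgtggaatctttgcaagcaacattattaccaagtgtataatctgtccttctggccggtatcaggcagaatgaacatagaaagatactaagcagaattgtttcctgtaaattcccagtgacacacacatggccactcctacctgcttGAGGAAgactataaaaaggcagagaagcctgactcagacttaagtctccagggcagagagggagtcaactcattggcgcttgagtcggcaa
Il1r1: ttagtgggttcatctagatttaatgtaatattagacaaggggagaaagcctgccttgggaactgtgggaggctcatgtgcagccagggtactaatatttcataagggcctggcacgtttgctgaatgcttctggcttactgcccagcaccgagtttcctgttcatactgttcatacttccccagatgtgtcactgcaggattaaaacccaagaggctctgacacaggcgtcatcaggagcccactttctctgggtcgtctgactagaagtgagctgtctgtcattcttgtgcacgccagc
The P2rx7 window had 1 match, the Nlrp3 window had 3 and the Il1a window had 1, lying 41 bases before the start. The second P2rx7 window held 1 match on the minus strand. No match was present in either Il1r1 window (the other at chr1:40266336-40266635) or in the second Nlrp3 window. The letters are common: 28.3% of 32851 promoter windows and 29.5% of the 786 windows of panel genes held at least 1 match. A match is a description of these letters and no evidence of binding.

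Each gene has its own probe, so levels were not set against one another between genes. Over the 55 mice the barcode counts behind the values were 16 to 155 for P2rx7, 24 to 266 for Il1r1, 2 to 59 for Nlrp3 and 3 to 30 for Il1a. A low-end level of 8.63 was read as the 95th percentile of the values of the 20 dimmest genes. P2rx7 and Il1r1 lay above it in 55 of 55 mice, Il1a in 45 and Nlrp3 in 37. Il1a and Nlrp3 therefore carried wider counting error than the other 2, and none of the 4 was at 0 in any mouse. For P2rx7, Nlrp3 and Il1a the 4 vehicle groups had the 4 highest means, and for Il1r1 the order mixed diets, with both 1-day groups on top. In each gene's order of 8 means, no neighbouring groups differed by more than the larger of their SDs, and their ranges overlapped.

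**Figure D1:**
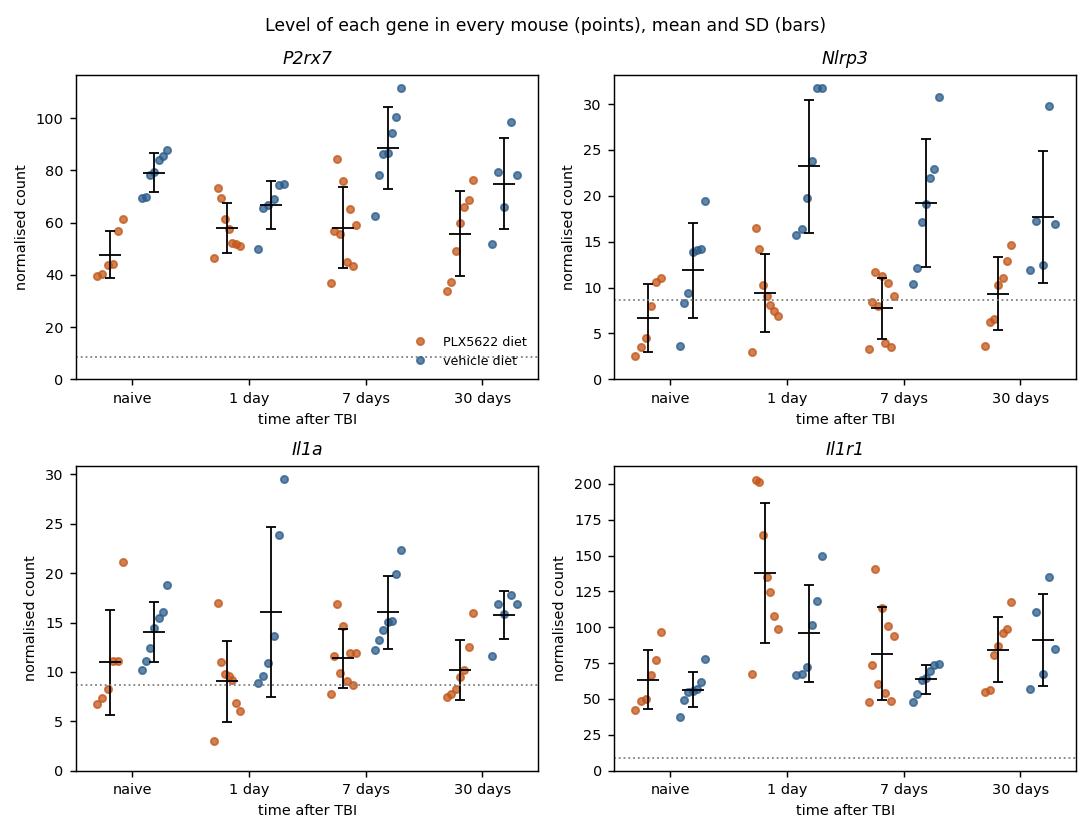
Normalised count (linear y axis) of P2rx7, Nlrp3, Il1a and Il1r1 in each mouse of the 8 groups, with PLX5622 left of vehicle at each time; points are mice, bars are mean ± SD, and the dotted line is the low-end level of 8.63. P2rx7 and Il1r1 lie above the line in all 55 mice, and PLX5622 mice lie lower than vehicle mice for P2rx7 in the naive panel without overlap.

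The first comparison asked what the diet alone did to these genes, in uninjured cortex. P2rx7, the ATP-gated channel, was lower on PLX5622 and the other 3 genes did not pass the test. P2rx7 was 39.7 to 61.5 (median 44.1) in naive PLX5622 mice and 69.3 to 87.9 (median 79.5) in naive vehicle mice. All 6 PLX5622 mice lay below all 7 vehicle mice, which 3% of the 799 genes also showed. The mean was 47.8 ± 9.10 on PLX5622 and 79.1 ± 7.37 on vehicle (SD, n = 6 and 7), or 60.3% of the vehicle level. The log2 fold change was -0.74 ± 0.18 (SE; 95% interval -1.10 to -0.38; limma adjusted p = 0.00376). The median of all genes in this comparison was -0.14, and with each mouse centred on its own median P2rx7 gave -0.57. Within the 3 RNA extraction batches, which held 1 to 4 mice of a group, the difference was -0.69, -0.98 and -0.68. Bulk RNA cannot tell fewer cells of a type from less RNA per cell.

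Nlrp3, the inflammasome sensor, was 2.55 to 11.1 (median 6.25) in naive PLX5622 mice and 3.61 to 19.4 (median 13.9) in naive vehicle mice. The ranges overlapped near the low-end level, although all 6 PLX5622 mice lay below the vehicle median. The log2 difference of -0.75 ± 0.35 did not pass (limma adjusted p = 0.486). Il1a, the alarmin, was 6.75 to 21.1 (median 9.68) on PLX5622 and 10.2 to 18.8 (median 14.5) on vehicle, with a difference of -0.36 ± 0.25 (limma adjusted p = 0.641). One PLX5622 mouse was the highest of both groups. Il1r1, the receptor, was 42.2 to 96.6 (median 58.3) on PLX5622 and 37.5 to 77.8 (median 55.4) on vehicle, and the groups lay over each other. Its difference was 0.10 ± 0.24 (95% interval -0.38 to 0.57). Thus 1 of the 4 genes was lower, where 3.38% of all 799 genes were lower and none higher.

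At 1 day after TBI, Nlrp3 and Il1a were lower on PLX5622 than on vehicle and P2rx7 and Il1r1 did not pass. Nlrp3 was 2.96 to 16.4 (median 8.62) in PLX5622 mice and 15.8 to 31.8 (median 21.8) in vehicle mice. Of the 8 PLX5622 mice, 7 lay below every vehicle mouse. The PLX5622 mean of 9.42 ± 4.25 was 40.6% of the vehicle mean of 23.2 ± 7.22 (SD, n = 8 and 6). The log2 fold change was -1.29 ± 0.35 (SE; 95% interval -1.99 to -0.58; limma adjusted p = 0.0169). Within extraction batches it was -2.07, -0.76 and -1.37. For every gene at 1 day, the first batch set 3 PLX5622 mice against vehicle mouse 697 alone. The call did not hold without vehicle mouse 697 (limma adjusted p = 0.0608), without vehicle mouse 726 (limma adjusted p = 0.0713) or when only the groups compared were fitted (-1.08, limma adjusted p = 0.159). That last fit kept the cartridge term. Cartridge 1 held 3 PLX5622 mice and no vehicle mouse of 1 day, so those 3 did not inform the -1.08.

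Il1a at 1 day was 2.96 to 17.0 (median 9.37) in PLX5622 mice and 8.87 to 29.5 (median 12.3) in vehicle mice. The groups overlapped, with 7 of 8 PLX5622 mice below the vehicle median. The mean was 9.04 ± 4.12 on PLX5622 and 16.1 ± 8.58 on vehicle, and the log2 fold change was -0.86 ± 0.25 (SE; 95% interval -1.36 to -0.36; limma adjusted p = 0.0322). This call was the least steady of the 7 reported here: it was lost without any one of 6 mice (696, 697, 711, 720, 740 or 741; adjusted p 0.0541 to 0.261) and under 4 of 11 alternatives. Within extraction batches the difference was -0.68, -0.46 and -1.17. On PLX5622, Il1a also went with depth: over 30 mice Pearson's r with the log2 total count was -0.54, against absolute values of at most 0.21 for the other 3 genes. With the total count as a covariate, chosen after seeing the data, the difference at 1 day was -0.89 (limma adjusted p = 0.00763).

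P2rx7 at 1 day was 46.3 to 73.4 (median 54.9) in PLX5622 mice and 49.9 to 74.9 (median 67.9) in vehicle mice, largely overlapping. The difference of -0.20 ± 0.18 had a 95% interval of -0.55 to 0.16 (limma adjusted p = 0.707). Il1r1 at 1 day was 67.0 to 202.9 (median 129.6) in PLX5622 mice and 66.5 to 150.0 (median 86.8) in vehicle mice. Of 8 PLX5622 mice, 7 lay above the vehicle median and 3 above every vehicle mouse, but the difference of 0.62 ± 0.23 did not pass (limma adjusted p = 0.182). It was -0.10, 1.09 and 0.15 within the extraction batches. Of the 4 genes 2 were lower, where 4.01% of all genes were lower.

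At 7 days, P2rx7 and Nlrp3 were lower on PLX5622. P2rx7 was 37.0 to 84.3 (median 56.8) in PLX5622 mice and 62.6 to 111.6 (median 86.9) in vehicle mice. All 9 PLX5622 mice lay below the vehicle median and 6 lay below every vehicle mouse. The mean of 58.1 ± 15.4 was 65.5% of the vehicle mean of 88.6 ± 15.8 (SD, n = 9 and 7), with a log2 fold change of -0.63 ± 0.16 (SE; limma adjusted p = 0.00726). Nlrp3 was 3.25 to 11.6 (median 8.46) on PLX5622 and 10.4 to 30.8 (median 19.2) on vehicle, again with all 9 below the vehicle median. Its mean was 7.73 ± 3.36 on PLX5622 and 19.2 ± 6.93 on vehicle, and its log2 fold change was -1.28 ± 0.32 (SE; limma adjusted p = 0.00612). Both calls were lost when only the groups compared were fitted (limma adjusted p = 0.137 for P2rx7 and 0.0521 for Nlrp3). In every extraction batch both differences were negative, from -0.80 to -0.49 for P2rx7 and from -2.33 to -0.69 for Nlrp3. The -2.33 came from a batch with 2 PLX5622 mice and 1 vehicle mouse.

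Il1a at 7 days was 7.72 to 16.9 (median 11.6) in PLX5622 mice and 12.2 to 22.3 (median 15.0) in vehicle mice. It lay below every vehicle mouse in 7 of 9 PLX5622 mice, yet the difference of -0.48 ± 0.23 did not pass (limma adjusted p = 0.524). Il1r1 was 47.7 to 140.5 (median 73.7) on PLX5622 and 47.7 to 74.2 (median 64.2) on vehicle, with 4 of 9 PLX5622 mice above all vehicle mice and a difference of 0.30 ± 0.21 (limma adjusted p = 0.857). Of the 4 genes 2 were lower, where 4.13% of all genes were lower.

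At 30 days no gene of the 4 passed with limma, DESeq2 or edgeR, where limma called 2.5% of all genes lower and 2.63% in either direction. P2rx7, Nlrp3 and Il1a were lower at an unadjusted p under 0.05, which 67 of all 799 genes reached in either direction. P2rx7 was 33.8 to 76.2 (median 59.8) in PLX5622 mice, and 51.7, 66.1, 78.3, 79.5 and 98.6 in the 5 vehicle mice. Nlrp3 was 3.57 to 14.7 (median 10.2) in PLX5622 mice, and 11.9, 12.4, 16.9, 17.3 and 29.8 in vehicle mice. Il1a was 7.43 to 15.9 (median 9.53) in PLX5622 mice, and 11.6, 15.8, 16.9, 16.9 and 17.8 in vehicle mice. For each of these 3 genes all 7 PLX5622 mice lay below the vehicle median, and the ranges overlapped. The log2 differences were -0.45 ± 0.19 for P2rx7, -0.91 ± 0.37 for Nlrp3 and -0.59 ± 0.26 for Il1a (SE; limma adjusted p 0.368, 0.336 and 0.458). Il1r1 was 54.5 to 117.6 (median 87.0) in PLX5622 mice, and 56.7, 67.5, 84.8, 110.7 and 135.3 in vehicle mice, with a difference of -0.09 ± 0.25.

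**Figure D2:**
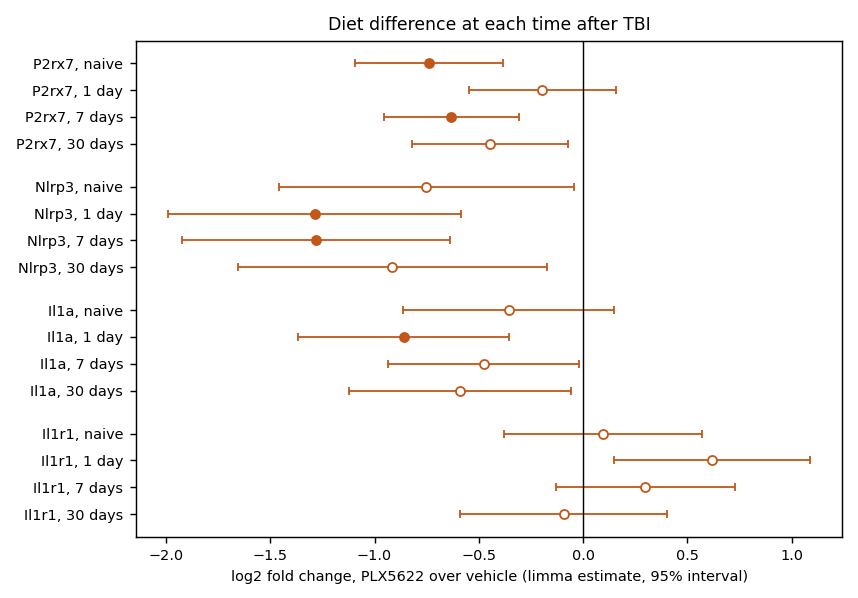
Log2 fold change of PLX5622 over vehicle (x axis) for each of the 4 genes in naive mice and at 1, 7 and 30 days after TBI (down the page); points are estimates, bars are 95% intervals, and filled points passed the test. P2rx7, Nlrp3 and Il1a lie below 0 at every time, with 5 filled points among them, and Il1r1 has none.

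Microglial markers moved with the same comparison. At 1 day their summed level was 225 to 479 in PLX5622 mice and 3272 to 4315 in vehicle mice. At 7 days it was 252 to 855 in PLX5622 mice and 2173 to 6590 in vehicle mice, and at 30 days 231 to 2011 in PLX5622 mice and 2825 to 4435 in vehicle mice. The diets did not overlap in this sum at any time. The list's median log2 fold change of PLX5622 over vehicle was -4.37 in naive mice, -3.93 at 1 day, -3.59 at 7 days and -2.26 at 30 days. Of the 13 genes, 12, 12, 12 and 11 were lower, where 3.38%, 4.01%, 4.13% and 2.5% of all genes were lower. The members' own differences were far smaller, between -1.29 and -0.20 for the first 3 genes, and the markers' part in them was not tested. The markers of lowest level (Cx3cr1, Itgam, C1qa, C1qc and Tyrobp) had means under the low-end level in naive PLX5622 mice. At 30 days on PLX5622, 10 of the 13 markers were higher than in naive PLX5622 mice, where 2.25% of all genes were higher. The summed level of the 13 markers differed between mice. Ordered by that sum (231, 410, 428, 955, 1048, 1546 and 2011), the 7 mice had P2rx7 levels of 37.2, 68.7, 33.8, 59.8, 76.2, 65.9 and 48.9.

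**Figure D3:**
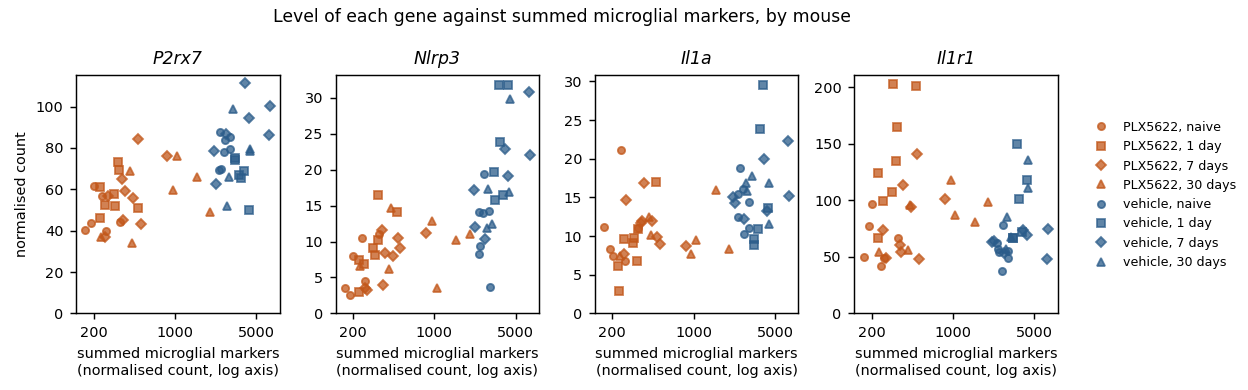
Normalised count of each of the 4 genes (linear y axis) against the summed normalised count of 13 microglial markers (log x axis) in each of the 55 mice, with colour for diet and symbol shape for time after TBI. PLX5622 mice lie at the left, between 171 and 2011, and vehicle mice lie at 2173 and above. The PLX5622 mice nearest to the vehicle mice, at 955 to 2011, are those of 30 days.

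Injury was compared with naive mice on the same diet, the same naive mice serving for all 3 days. Il1r1, the receptor, rose at 1 day on PLX5622, and with limma and all mice in the fit no other gene of the 4 passed on either diet at any day. On vehicle at 1 day, Il1r1 and Nlrp3 passed with DESeq2 and with limma on only the groups compared. Il1r1 was 67.0 to 202.9 (median 129.6) in PLX5622 mice at 1 day and 42.2 to 96.6 (median 58.3) in naive PLX5622 mice. All 8 injured mice lay above the naive median and 7 above every naive mouse. The mean was 137.7 ± 48.7 at 1 day and 63.5 ± 20.7 in naive mice (SD, n = 8 and 6), a ratio of 2.17. The log2 fold change was 1.19 ± 0.23 (SE; 95% interval 0.72 to 1.65; limma adjusted p = 2.93e-04), and within extraction batches it was 1.04, 1.74 and 0.68. Of the 4 genes 1 was higher, where 6.76% of all genes were higher.

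On vehicle at 1 day, Il1r1 was 66.5 to 150.0 (median 86.8) in injured mice and 37.5 to 77.8 (median 55.4) in naive mice. All 6 injured mice lay above the naive median and 3 above every naive mouse, and the difference was 0.66 ± 0.25 (95% interval 0.17 to 1.16; limma adjusted p = 0.163). The DESeq2 value was 0.75 (adjusted p = 0.0440), and the limma value on only the groups compared was 0.81 (adjusted p = 0.0384). The 0.81 rests on the 3 cartridges that held both groups, with 1 injured mouse in each (0.37 to 1.10 within cartridges). The other injured mice, all of cartridge 2, did not inform it. With all 55 mice in the fit, limma called 0 of the 4 genes at 1 day on vehicle. At an unadjusted p under 0.05 it had 2 of the 4, where 104 of all 799 genes reached that in either direction. With all mice, edgeR called 0 and DESeq2 called 2 of the 4 (Il1r1 and Nlrp3), and limma on only the groups compared called the same 2. Limma with all mice called 1.88% of all genes higher and 2.25% in either direction, or 18 genes. DESeq2 called 51 and edgeR 44 of all genes, and over the alternative settings the count ran from 13 to 65. The 2 calls with DESeq2 therefore came with more calls among all genes than with limma. The difference between the diets in the Il1r1 response at 1 day was 0.52 ± 0.34 (95% interval -0.16 to 1.20; limma adjusted p = 0.935), so a larger response on PLX5622 was not shown. Limma called 0.125% of all genes for this interaction.

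Il1r1 at 7 days on PLX5622 was lower than at 1 day, with a log2 fold change of -0.83 ± 0.21 (SE; limma adjusted p = 0.0192). It was 47.7 to 140.5 (median 73.7) at 7 days and 67.0 to 202.9 (median 129.6) at 1 day, and 8 of the 9 mice at 7 days lay below the 1-day median. Within extraction batches the difference was -0.56, -1.28 and -0.45. The call did not hold without PLX5622 mouse 719 of 1 day (-0.73, limma adjusted p = 0.0825) or when only the groups compared were fitted (limma adjusted p = 0.190). Of the 4 genes 1 was lower, where 1.38% of all genes were lower and 2.38% changed in either direction. In the same comparison, Pecam1 (-0.70) was lower among 9 endothelial and pericyte markers, whose median was -0.18 with -0.02 for all genes and whose summed level was 2080 to 3434 at 7 days and 2146 to 3439 at 1 day. Gja1 (1.02) and S100b (0.57) were higher among 6 astrocyte markers, and Cx3cr1 (1.13) was higher among 13 microglial markers, summed at 252 to 855 at 7 days and 225 to 479 at 1 day. The part of these cells in the Il1r1 difference was not tested. On vehicle the same step was -0.51 ± 0.24 (limma adjusted p = 0.552). The Il1r1 differences from naive mice were 0.36 ± 0.22 at 7 days and 0.46 ± 0.24 at 30 days on PLX5622, and 0.15 ± 0.23 at 7 days and 0.65 ± 0.25 at 30 days on vehicle, and none passed (limma adjusted p at least 0.476). Limma called 1.5% of all genes at 7 days and 2.25% at 30 days on PLX5622 against naive, all of them higher, and 0 on vehicle, where 51 and 29 genes had an unadjusted p under 0.05, DESeq2 called 12 and 1 and edgeR called 9 and 0. At 30 days on vehicle all 5 injured mice lay above the naive median.

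**Figure D4:**
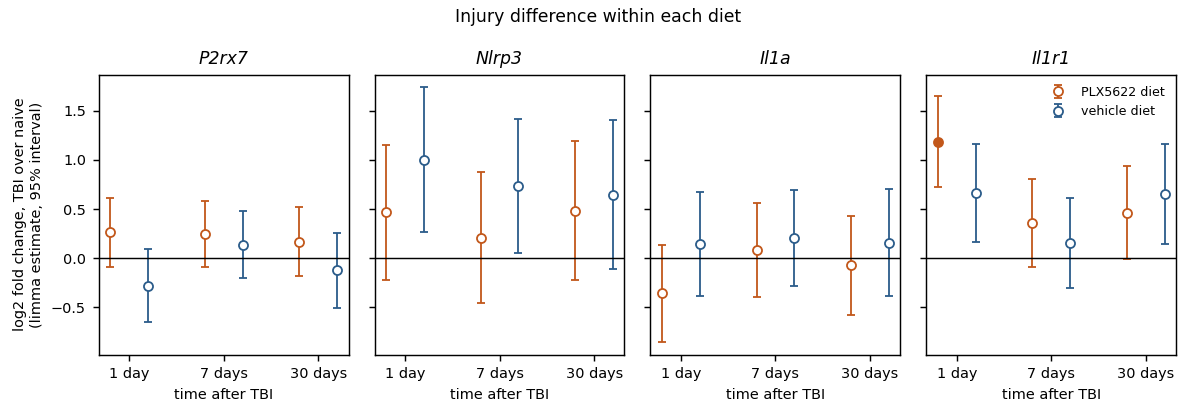
Log2 fold change of injured over naive mice of the same diet (y axis) for each of the 4 genes at 1, 7 and 30 days after TBI, PLX5622 left of vehicle; points are estimates, bars are 95% intervals, and filled points passed the test. The filled point is Il1r1 on PLX5622 at 1 day, at 1.19.

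Nlrp3 on vehicle was 15.8 to 31.8 (median 21.8) at 1 day and 3.61 to 19.4 (median 13.9) in naive mice. All 6 injured mice lay above the naive median and 4 above every naive mouse, with a difference of 1.00 ± 0.37 (limma adjusted p = 0.156) that was called by DESeq2 (1.04, adjusted p = 0.0495) and by limma on only the groups compared (1.29, adjusted p = 0.0410). The 1.29 rests on 3 cartridges with 1 injured mouse each, which gave 0.47 to 2.43. On PLX5622, Nlrp3 was 2.96 to 16.4 (median 8.62) at 1 day and 2.55 to 11.1 (median 6.25) in naive mice, a difference of 0.47 ± 0.34 (limma adjusted p = 0.501). P2rx7 estimates at 1 day had opposite signs on the diets, without passing: all 8 injured PLX5622 mice lay above their naive median (0.26 ± 0.17), and all 6 injured vehicle mice lay below theirs (-0.28 ± 0.19). The test of that difference gave 0.54 ± 0.25, with an unadjusted p of 0.0364 and a limma adjusted p of 0.853. An unadjusted p under 0.05 was reached by 42 of all 799 genes for this interaction. Without vehicle mouse 697 the P2rx7 value was 0.46 ± 0.25 (limma adjusted p = 0.887). Il1a differences from naive at 1 day were -0.36 ± 0.25 on PLX5622 and 0.14 ± 0.26 on vehicle, and ranges overlapped.

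Some cell type markers also passed in the comparison of the Il1r1 call, 1 day over naive on PLX5622, where 7.01% of all genes passed. The share was 7.69% of microglial, 33.3% of endothelial and pericyte and 33.3% of astrocyte markers. It was 20% of border macrophage and leukocyte markers, 16.7% of oligodendrocyte markers and 0% of neuronal markers. Of 13 microglial markers, Itgam (1.39) was higher, the list's median was 0.46 with 0.10 for all genes, and the summed level was 225 to 479 at 1 day and 171 to 335 in naive mice. Of 9 endothelial and pericyte markers, Pecam1 (0.82) and Eng (0.51) were higher and Cd34 (-0.58) was lower, and their summed level was 2146 to 3439 at 1 day and 2164 to 3660 in naive mice. Of 6 astrocyte markers, Gfap (3.10) and Aldh1l1 (0.64) were higher. Of 5 markers of border macrophages and leukocytes, Ccr2 (1.89) was higher, with summed levels of 38.4 to 69.8 at 1 day and 27.0 to 49.8 in naive mice, and Mrc1, Cd163 and Cd8a had means under the low-end level at 1 day. With edgeR, 0 of these 5 passed. Of 6 oligodendrocyte markers, Olig2 (0.78) was higher, and none of 4 neuronal markers passed. The part of these cells in the Il1r1 result was not tested.

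The wider pathway was read from 66 genes of interleukin 1, inflammasome, purine receptor and NF-kappa B signalling, of which 23 were on the panel. At 1 day on PLX5622 against naive, 3 of 23 were higher and none lower, or 13.0%, where 7.01% of all genes changed. They were Tlr4, a receptor for microbial and damage signals (23.6 ± 9.50 in injured and 10.4 ± 3.70 in naive mice; log2 1.27 ± 0.33, limma adjusted p = 0.00896), Icam1, a leukocyte adhesion molecule (42.6 ± 16.0 in injured and 22.8 ± 5.52 in naive mice; 0.99 ± 0.27, limma adjusted p = 0.0138), and Rela, an NF-kappa B subunit (0.52 ± 0.17, limma adjusted p = 0.0497). The Tlr4 call was lost without the cartridge as a covariate (limma adjusted p = 0.0819), and so was the Icam1 call (0.106), which was also lost without mouse 713 or 719 (0.0644 and 0.0618). Rela lost its call under 7 alternatives and in 40 of 55 fits that each left out 1 mouse. DESeq2 and edgeR each called 2 of the 23, where they called 68 and 61 of all genes and limma called 56. The list's median was 0.34, with 0.10 for all genes.

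At 1 day on vehicle against naive, limma called 2 of 23 higher, or 8.70%, where 2.25% of all genes changed. DESeq2 called 5 and edgeR 4 of the 23. Both also called more of all genes, 51 with DESeq2 and 44 with edgeR, where limma called 18. The list's median was 0.21, with -0.04 for all genes. The 2 were Ccl12, a monocyte-attracting chemokine (92.1 ± 70.3 in injured and 8.53 ± 2.56 in naive mice; log2 3.15 ± 0.57, limma adjusted p = 4.83e-04), and Tnf, the inflammatory cytokine (14.0 ± 8.49 in injured and 5.03 ± 3.02 in naive mice; 1.35 ± 0.38, limma adjusted p = 0.0484). The naive vehicle means of Ccl12 and Tnf lay under the low-end level of 8.63. Tnf lost its call in 31 of 55 fits that each left out 1 mouse. It also lost it with no covariate (limma adjusted p = 0.0530) and with cartridge and extraction batch together (limma adjusted p = 0.0507). Ccl12 was 3.81 ± 3.21 in PLX5622 mice at 1 day and 4.63 ± 1.84 in naive PLX5622 mice, all but 1 of them under the low-end level. Its interaction of diet and injury at 1 day was -3.70 ± 0.78 (limma adjusted p = 0.0142), and this call was lost without mouse 711, 726 or 736 (adjusted p 0.0572 to 0.0728). Of the 23 genes, only Ccl12 passed for that interaction with limma. Ccl12 was also lower on PLX5622 than on vehicle at 1 day (-4.42 ± 0.54) and at 7 days (-2.15 ± 0.50). P2ry12, a purine receptor that marks microglia, was lower on PLX5622 in naive mice and at 1, 7 and 30 days, with differences of -4.82, -3.79, -4.04 and -3.80.

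Of the genes that stand next to the 4 in the pathway, Il1b, Casp1 and Myd88 were on the panel and passed in no comparison. Il1b, the other ligand of IL1R1, was 15.1 ± 5.26 at 1 day and 9.02 ± 4.41 in naive mice on PLX5622 (0.77 ± 0.32, limma adjusted p = 0.166), and 12.8 ± 5.59 at 1 day and 10.4 ± 2.45 in naive mice on vehicle (0.21 ± 0.35, limma adjusted p = 0.888). The PLX5622 difference over vehicle for Il1b at 1 day was 0.32 ± 0.33, where that for Il1a was -0.86 ± 0.25. The difference between those genes was not tested. Casp1, the inflammasome protease, was 8.74 ± 4.78 in naive PLX5622 mice and 12.4 ± 3.63 in naive vehicle mice (-0.58 ± 0.27, limma adjusted p = 0.486). Myd88, the adaptor of IL1R1, was 16.7 ± 6.52 at 1 day and 11.2 ± 2.12 in naive mice on PLX5622 (0.51 ± 0.26, limma adjusted p = 0.305).

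The genes most like each member were ranked by Pearson's r of log2 values among 798 genes, within a diet, as a description of mice that share groups, cartridges and depth. On PLX5622 (30 mice), Il1r1 was most like Myc (0.76), Lsr (0.74) and Plcb3 (0.74), and on vehicle (25 mice) most like Col4a2 (0.83), Fgf2 (0.74) and Tgfbr2 (0.72). Spearman's rho for these ran from 0.73 to 0.79. With the group means taken out, r with Il1r1 on PLX5622 was 0.57 for Myc, 0.61 for Lsr and 0.74 for Plcb3. On vehicle it was 0.77 for Col4a2, 0.62 for Fgf2 and 0.69 for Tgfbr2. Myc is a growth-promoting transcription factor, Col4a2 a basement membrane collagen and Tgfbr2 a TGF-beta receptor. P2rx7 was most like Pmp22 (0.65), Galc (0.64) and Gsn (0.63) on PLX5622, and most like Lama2 (0.72), Nqo1 (0.67) and Apoe (0.59) on vehicle. Nlrp3 was most like Cxcr4 (0.65), Klk6 (0.62) and Ifi27l2a (0.60) on PLX5622, and most like Tgfbr2 (0.74), Gfap (0.72) and Tgfb1 (0.70) on vehicle. With the group means taken out, these were 0.64, 0.63 and 0.60 on PLX5622, and 0.68, 0.55 and 0.62 on vehicle. Il1a, the member nearest the low end with Nlrp3, was most like Nkx6-2 (0.68), Erlec1 (0.57) and Pink1 (0.53) on PLX5622, and most like Gria4 (0.55), Pcna (0.49) and Calm4 (0.46) on vehicle. Calm4 was itself among the 20 dimmest genes. For P2rx7, Nlrp3 and Il1a, rho with the genes named ran from 0.38 (Calm4 with Il1a) to 0.80 (Tgfbr2 with Nlrp3). No gene stood among the 3 most like a given member on both diets.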

How the data were processed

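RNA of microdissected cortex was measured in 55 mice on an nCounter panel. The authors deposited a linear signal per gene: each mouse's barcode counts over 1 scaling factor. The submitters' processing notes name DESeq2, with no version. Per the labels' protocols, RNA was pre-amplified, with cycles set from Gapdh and Actb. How background was treated was not given in the sources used here. Dividing by the value of 1 count gave whole counts for 100% of values at a tolerance of 0.02.

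Groups came from the labels, and mice of a group always differed by more than counting noise (chi-square over its degrees of freedom at least 4.96). The test was limma 3.58.1 in R 4.3.3: lmFit, then eBayes with its variance trend, on log2(value + 1). The model held 8 group means and 5 cartridges, and every mouse entered it. Tests were two-sided, with p-values adjusted by Benjamini-Hochberg over 799 genes per comparison, with a threshold of 0.05. Differences on that scale understate those of low genes. Alternatives were DESeq2 1.42.0 and edgeR 4.0.16 on the recovered counts, other covariates (RNA extraction batch, 3), centring, filters, pseudocounts, a fit of only the groups compared, leaving out each mouse and, chosen after seeing the data, the log2 total count as a covariate. The fitting code was tested on simulated data. Symbols were matched to RefSeq (792 current, 7 synonyms). The 4 genes, the lists, the motif and the rule for named genes were chosen with earlier results of these data known. Named genes were the 4, Il1b, Casp1 and Myd88, any gene of the pathway list that passed a test, example markers, and the 3 genes most like each of the 4 per diet.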

Additional observations from a re-analysis of the deposited data

Results flagged for a closer look

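In 32 groups of values (4 genes in 8 groups), 2 held a mouse far from the others by Dixon's criterion, which chance gives in about 1 in 20 groups. P2rx7 at 1 day on vehicle was 49.9 in mouse 697, the lowest of 6 mice, with a gap to the next of 0.626 of the range, where the critical value is 0.625. Without that mouse, the P2rx7 difference at 1 day of PLX5622 over vehicle was -0.28 (limma adjusted p = 0.559), and that of vehicle 1 day over naive was -0.21 (limma adjusted p = 0.788). Il1a in naive PLX5622 mice was 21.1 in mouse 690, from 16 barcodes, the highest of 6 mice, with a gap of 0.694 of the range. Without it, the Il1a difference of naive PLX5622 over naive vehicle was -0.53 (limma adjusted p = 0.668).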

How the results depend on the processing

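Over 68 results (4 genes in 17 comparisons), 770 of 782 values under other settings and 3731 of 3740 with 1 mouse left out stayed on the same side of the threshold. No called value changed sign, and 11 and 29 values that had not passed did. P2rx7 in naive mice (-0.74 to -0.56, adjusted p 0.00273 to 0.0363) and Il1r1 at 1 day on PLX5622 (1.07 to 1.24, adjusted p 5.74e-05 to 0.0117) passed under all 12 settings and every leave-out. Fitting only the groups compared gave, for PLX5622 over vehicle, -0.62 for P2rx7 at 7 days, -1.08 and -1.21 for Nlrp3 at 1 and 7 days and -0.77 for Il1a at 1 day, and -0.79 for Il1r1 at 7 over 1 day on PLX5622, none of which passed (limma adjusted p 0.0521 to 0.692). The same fit called Nlrp3 (1.29, limma adjusted p = 0.0410) and Il1r1 (0.81) at 1 day over naive on vehicle, as DESeq2 did (1.04 and 0.75). That fit holds fewer mice and keeps the cartridge term, so mice of a cartridge without the other group do not inform its differences. At 1 day over naive on vehicle, that left 3 cartridges with 1 injured mouse each. Il1a at 1 day also lost its call with no covariate (-0.74), with the extraction batch in place of the cartridge (-0.79) and with centring (-0.77), and the cause was not tested. With 1 mouse left out, Nlrp3 at 1 day ran from -1.45 to -1.14, Il1a at 1 day from -0.99 to -0.63, and Il1r1 at 7 over 1 day on PLX5622 from -0.96 to -0.71. A pseudocount of 10 gave -0.79 and -0.72 for Nlrp3 at 1 and 7 days and -0.50 for Il1a at 1 day, all still called. The filter on low means left out Nlrp3 and Il1a, which then have no value. Within every cartridge that held both groups, the 7 called differences kept their sign. Counts over all genes that moved by more than 1.5 times were those of PLX5622 over vehicle at 30 days (21, with 13 to 22 when 1 mouse was left out), of 1 day over naive on PLX5622 (56, with 32 to 68) and on vehicle (18, with 9 to 65), of 7 and 30 days over naive on PLX5622 (12, with 3 to 28, and 18, with 10 to 23), of 7 over 1 day on PLX5622 (19, with 2 to 57), and of the interactions at 1 and 30 days (1, with 0 to 2, and 3, with 0 to 5). Counts of 0 reached 12 at 7 days over naive, 14 at 7 over 1 day and 6 at 30 over 7 days on vehicle, and 2 at 30 over 7 days on PLX5622. In the pathway list, the 3 genes at 1 day on PLX5622 became 0 to 4 and the 2 at 1 day on vehicle became 0 to 5. No paired analysis was possible because mouse numbers name animals and are shared by no groups. Few barcodes for Nlrp3 (2 to 59) and Il1a (3 to 30) limit the precision of their differences.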
